A study of Arabidopsis thaliana with 104 samples.

Results

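The phr1 phl1 double mutant of Arabidopsis thaliana was compared between low (50 µM) and high (625 µM) phosphate (Pi), with a synthetic community of bacteria (SynCom) added, to describe which transcripts still responded to low Pi when both PHR1 and PHL1 were mutated. Libraries were chosen by their labels for genotype, Pi level and bacteria, which gave 6 libraries at low Pi and 6 at high Pi, while the series holds 92 other libraries. They came from experiments C, D and E, with 2 libraries of each group in each experiment. All were made from whole seedlings, kept for 7 days at 1 mM Pi with 0.5% sucrose and then for 12 days at either Pi level without sucrose. Both groups thus carried both mutations and had received bacteria. The labels name the genotypes but not the mutant alleles. Groups of 6 libraries at each Pi level from the same experiments served as references: wild-type Col-0 with SynCom, the single mutant phr1 with SynCom, and phr1 phl1 without bacteria. The submitters call the libraries biological replicates, but the 2 libraries of a group and experiment shared that experiment, and p-values are too small where a response differed between experiments.

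PHR1 and its close relative PHL1 are MYB-type transcription factors that bind a short palindromic element, P1BS, in the promoters of genes activated by Pi starvation. In Pi-replete cells SPX-domain proteins bind PHR1 and hold it back, and when Pi falls PHR1 is released and turns on Pi transporters, secreted phosphatases, non-coding RNAs that sequester the microRNA miR399, and enzymes that replace membrane phospholipids by galactolipids and sulpholipids. PHR1 has also been linked to plant immunity, including the salicylic acid branch of defence.

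Transcripts of both mutated genes were still counted in the double mutant. PHR1 had a lowest, median and highest level of 26.6, 30.7 and 36.0 CPM (counts per 1000000 counts of the scaled library) at low Pi and 20.7, 43.3 and 56.7 CPM at high Pi, against 51.8 to 79.8 CPM over the 12 Col-0 libraries. PHL1 ran from 42.1 to 167 CPM at low Pi and from 48.9 to 103 CPM at high Pi, all above the 7.83 to 20.8 CPM of Col-0. Levels between genotypes are a description here, and a count over a whole gene does not show whether a mutation is present. The PHR1 call between Pi levels, a log2 fold change of -0.43 ± 0.14 (SE, edgeR adjusted p = 0.0227), was lost in 12 of 27 alternative analyses, and PHR1 overlaps the neighbouring gene AT4G28600 in the annotation. Total counts were 2337430 to 3228314 per library at low Pi and 1760732 to 4874564 at high Pi. Of the 72 libraries fitted together, 4 stood apart from their groups or fell under 1000000 counts. None of these was in the double mutant with SynCom, and 1 was Col-0 at low Pi with SynCom (experiment D). The others were without bacteria. They were the first high Pi library of experiment D in phr1 and in phr1 phl1, and the second low Pi library of experiment E in phr1 phl1 (955174 counts).

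With SynCom, 3151 of 18216 genes tested (17.3%) passed an adjusted p under 0.05 in edgeR's quasi-likelihood test: 1636 rose at low Pi (8.98% of the genes tested) and 1515 fell (8.32%). Fold changes are given throughout as log2 of low over high Pi, with the standard error of a fit over 6 libraries a group and experiment as a term. Large changes were mostly upward, with 705 genes more than 2-fold higher and 191 more than 2-fold lower, and the median over all genes was -0.00. Groups that did not overlap at all were found for 167 genes higher at low Pi (0.917%) and for 120 lower (0.659%). The response was uneven between experiments. Fitted alone, experiment C called 2994 genes (16.4%), experiment D 1792 (9.84%) and experiment E 3 (0.0165%). Signs matched the joint fit for 99.65% of the 3151 genes in experiment C, for 99.59% in D and for 81.02% in E, where the median absolute log2 fold change of these genes was 0.27 against 0.88 in C and 0.96 in D. The genes were chosen by the joint fit of these same libraries, so the matches are partly built in and are no replication. Col-0 fitted alone had 3370 (18.5%), 5416 (29.7%) and 44 (0.242%) genes called in experiments C, D and E, and phr1 had 4236 (23.3%), 1025 (5.63%) and 94 (0.516%), so E had the fewest calls in all 3 genotypes. The 3 genes called in experiment E alone, named after their values were seen, were GDPD1 (2.12), MGD2 (2.27) and AT1G65970 (1.801), all higher at low Pi there and in C and D. Without experiment C the count was 368, without D 564 and without E 4819. It was 1947 without the second low Pi library of experiment D, the lowest over single libraries left out.

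Of 16 genes of Pi transport and signalling tested, 10 rose at low Pi in the double mutant and 0 fell, with a list median of 1.18 on the log2 scale. In 5 of the 16 the groups did not overlap.

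AT4, a non-coding RNA that sequesters miR399, rose at low Pi. It stood there at 345 and 475 CPM in experiment C, 303 and 378 CPM in D, and 25.8 and 148 CPM in E. At high Pi the 6 libraries ran from 4.64 to 23.1 CPM, with a median of 9.59 CPM. Every low Pi library was above every high Pi library, and the 2 of experiment E were the lowest of the low Pi group. The log2 fold change was 4.53 ± 0.54 (edgeR adjusted p = 1.91e-08), or 4.64, 5.16 and 3.63 with each experiment fitted by itself, in the order C, D, E. The second RNA of this family, IPS1, had a lowest, median and highest level of 6.54, 22.8 and 58.1 CPM at low Pi and 3.96, 6.46 and 9.53 CPM at high Pi. Its groups overlapped, and the log2 fold change was 1.78 ± 0.46 (edgeR adjusted p = 0.0048).

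SPX1, one of the SPX-domain inhibitors of PHR1 and itself a Pi starvation gene, ran from 80.4 to 142 CPM in 5 of the low Pi libraries, with 1 library of experiment E at 22.5 CPM. At high Pi it had a lowest, median and highest level of 10.8, 13.6 and 16.3 CPM. The groups did not overlap and the log2 fold change was 2.86 ± 0.34 (edgeR adjusted p = 1.63e-08). SPX2, its close relative, rose by 1.16 ± 0.22 (edgeR adjusted p = 0.000157). SPX4, another inhibitor of the family, had a log2 fold change of -0.26 ± 0.13 that did not pass (edgeR adjusted p = 0.16).

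Among the high-affinity Pi transporters of the PHT1 family, PHT1;4 had levels of 21.4, 31.7 and 47.2 CPM (lowest, median, highest) at low Pi and 2.22, 2.90 and 8.77 CPM at high Pi. PHT1;1 ran from 57.8 to 135 CPM at low Pi and from 7.70 to 48.9 CPM at high Pi. The groups were separate for both genes, with log2 fold changes of 3.12 ± 0.47 (edgeR adjusted p = 6.39e-06) and 2.29 ± 0.35 (edgeR adjusted p = 7.63e-06). PHT1;2 was counted in all 6 low Pi libraries, from 0.791 to 5.63 CPM, and was at 0 in 5 of the 6 high Pi libraries, so no fold change is given. PHT1;1, PHT1;2 and PHT1;3 are nearly identical in sequence, and their separate counts are uncertain. PHO1, which loads Pi into the xylem, rose by 0.89 ± 0.28 (edgeR adjusted p = 0.0224), and PHF1, needed for PHT1 proteins to leave the endoplasmic reticulum, by 0.95 ± 0.26 (edgeR adjusted p = 0.00823).

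PHO2, the ubiquitin-conjugating enzyme that removes Pi transporters and is the target of miR399, also rose. It had levels of 554, 605 and 948 CPM at low Pi and 177, 263 and 557 CPM at high Pi. The ranges overlapped by 1 high Pi library, and the log2 fold change was 1.199 ± 0.19 (edgeR adjusted p = 1.28e-05), or 1.57 in C, 1.35 in D and 0.75 in E. Col-0 levels were much lower, with medians of 122 CPM at low Pi and 119 CPM at high Pi, and no change passed there (log2 fold change 0.04, edgeR adjusted p = 0.91). The difference between the responses of the double mutant and Col-0 was 1.16 (edgeR adjusted p = 0.00761).

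**Figure D1:**
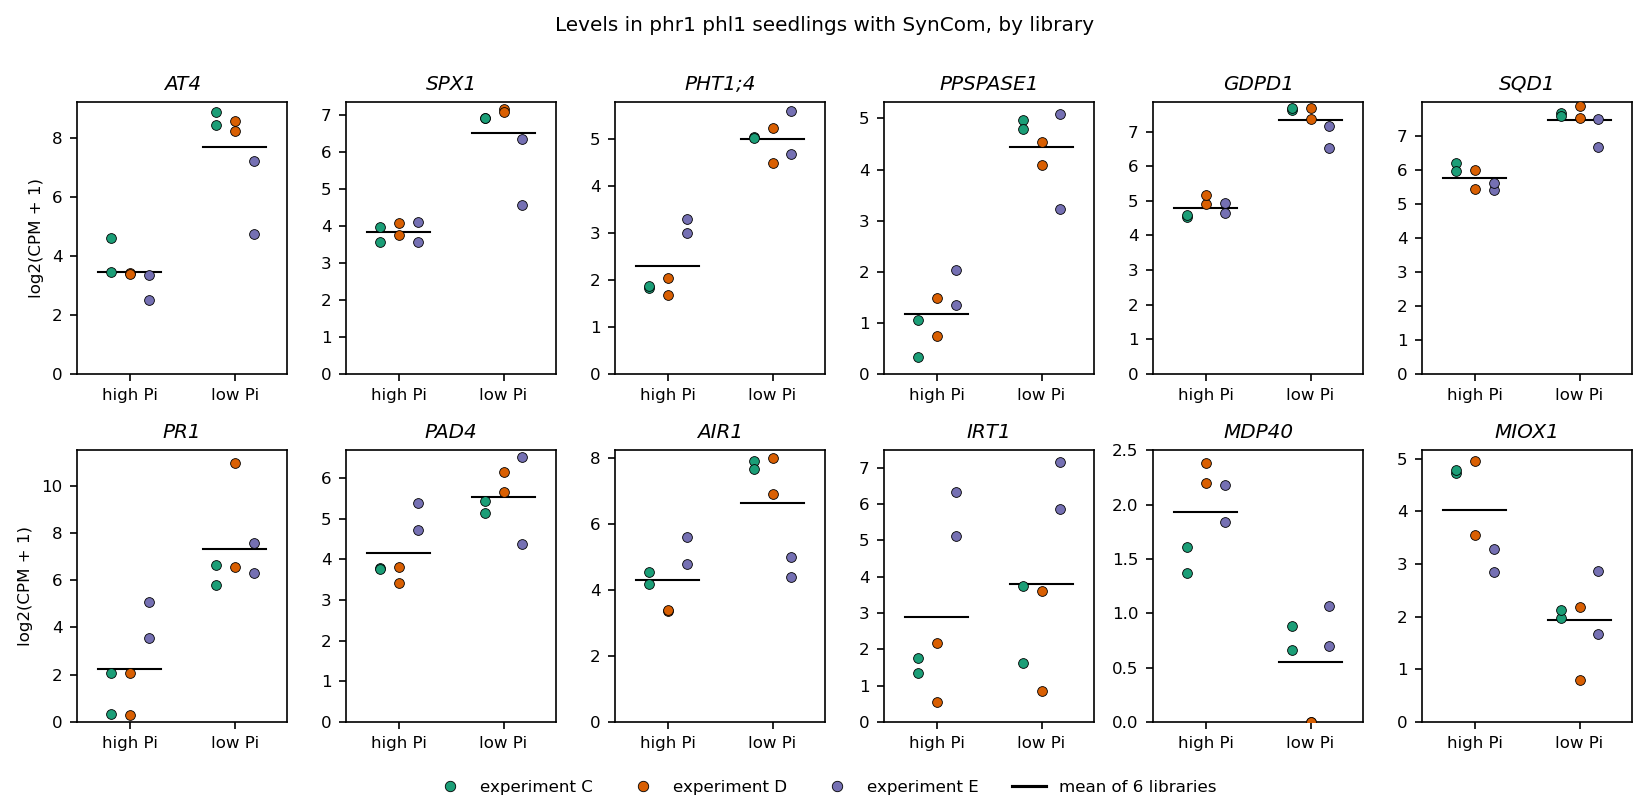
Levels of 12 genes in each phr1 phl1 library with SynCom, as log2(CPM + 1) with a scale of its own for each gene, at high and low Pi. Points are single libraries coloured by experiment C, D or E and bars are means of 6 libraries, so that AT4, with 25.8 to 475 CPM at low Pi, is seen wholly above its 4.64 to 23.1 CPM at high Pi, while the low Pi libraries of experiment E of AIR1 lie among its high Pi libraries.

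Of 17 enzymes of membrane lipid remodelling tested, 10 rose and 1 fell, with a median of 1.00 and with separate groups in 6. GDPD1, a glycerophosphodiester phosphodiesterase that recovers Pi from lipid head groups, ran from 91.5 to 206 CPM at low Pi, with a median of 180.3 CPM, and from 22.1 to 35.0 CPM at high Pi. SQD1, which makes the sulphoquinovose donor of sulpholipid synthesis, ran from 102 to 233 CPM at low Pi and from 41.9 to 72.1 CPM at high Pi. MGD2, a monogalactosyldiacylglycerol synthase of the outer chloroplast envelope, stood at 30.5, 43.2 and 56.0 CPM against 8.77, 9.94 and 11.3 CPM. The groups of all 3 genes were separate. Their log2 fold changes were 2.64 ± 0.24 (edgeR adjusted p = 4.64e-12), 1.73 ± 0.16 (edgeR adjusted p = 4.64e-12) and 2.07 ± 0.26 (edgeR adjusted p = 8.86e-08).

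In experiment E alone the same genes stood at 2.12, 1.66 and 2.27. MGD3 rose by 2.23 ± 0.53, SQD2, the sulpholipid synthase, by 1.27 ± 0.24, and the digalactolipid synthases DGD1 and DGD2 by 1.00 ± 0.14 and 0.67 ± 0.17. PLDZETA2, a phospholipase D, rose by 2.48 ± 0.40. The gene that fell was MGD1, the galactolipid synthase of the inner envelope that makes the bulk of thylakoid lipid, at -0.67 ± 0.22 (edgeR adjusted p = 0.0258). NPC4, a phospholipase C, had a log2 fold change of -0.00 ± 1.04 and PAH1, a phosphatidate phosphatase, one of -0.08 ± 0.15, and neither passed. GDPD1, PLDZETA2 and MGD1 overlap other annotated genes, and because the libraries carried no strand their reads cannot be told apart from those of the neighbours.

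Of 15 phosphatase and Pi scavenging genes tested, 7 rose and 1 fell, with a median of 0.78 and separate groups in 4. PPSPASE1, an inorganic pyrophosphatase, ran from 8.35 to 32.8 CPM at low Pi and from 0.257 to 3.08 CPM at high Pi. PAP17, a purple acid phosphatase, ran from 35.6 to 131 CPM at low Pi and from 3.08 to 20.7 CPM at high Pi. Neither gene's groups overlapped, and the log2 fold changes were 4.26 ± 0.68 (edgeR adjusted p = 1.33e-05) and 2.996 ± 0.40 (edgeR adjusted p = 3.98e-07). G3PP1, a glycerol-3-phosphate transporter homologue, rose by 2.402 ± 0.43, PAP12, a secreted acid phosphatase, by 0.90 ± 0.16, and PPCK1, which phosphorylates phosphoenolpyruvate carboxylase, by 1.16 ± 0.25. PAP26, a major vacuolar acid phosphatase, stood at 0.03 ± 0.10 and RNS1, a secreted ribonuclease, at -0.94 ± 0.54, and neither passed. Among 9 further Pi regulators 4 rose and none fell: the transcription factors WRKY45 (1.64 ± 0.26, edgeR adjusted p = 1.38e-05), WRKY75 (1.62 ± 0.46) and WRKY6 (1.12 ± 0.34), and LPR2, a ferroxidase of the root tip response to low Pi (1.01 ± 0.17, edgeR adjusted p = 3.99e-05).

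P1BS was searched as GNATATNC and the core of the W-box, the element bound by WRKY factors, as TTGAC, on both strands from 250 bases before to 50 bases after each annotated gene start (RefSeq annotation of TAIR10.1). P1BS was in 6.26% of the 18203 genes tested that had a full window, in 8.62% of those that rose in the double mutant, and in 6.01% of those that fell. P1BS was in 9.38% of the genes that rose in Col-0 with SynCom. For 361 of those genes the response of the double mutant was called below that of Col-0, and 15.8% of the 361 held P1BS. It was in 11 of the 17 lipid genes tested (64.7%), 8 of the 15 phosphatase genes (53.3%) and 5 of the 16 Pi transport genes (31.2%). The W-box core was in 51.3% of all windows, in 60.7% of those of genes that rose in the double mutant and in 45.2% of those that fell. It was in 54.7% of the windows of genes that rose in Col-0, and in 53.2% of those of the 361. It was in 13 of 20 salicylic acid genes (65.0%), of which none held P1BS. A match is a description of the letters in a window and not a binding site, no window held overlapping matches of both, and these shares were not tested. The 250 bases upstream of the annotated start are shown for 4 Pi genes that rose in the double mutant and carry P1BS, in capitals, and for AIR1, described further on, with the W-box core in capitals. The W-box core is not marked in the 4 Pi genes, though the windows of PPSPASE1 and GDPD1 held 1 each. All are from TAIR10.1, on the gene's own strand, 5′ to 3′.
AT4 (chr5:894332-894581, plus strand): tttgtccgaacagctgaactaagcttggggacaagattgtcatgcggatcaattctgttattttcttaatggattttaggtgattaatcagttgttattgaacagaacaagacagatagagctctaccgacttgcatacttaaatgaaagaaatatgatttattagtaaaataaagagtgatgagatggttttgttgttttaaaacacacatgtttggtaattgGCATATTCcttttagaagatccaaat
PPSPASE1 (chr1:27466349-27466598, minus strand): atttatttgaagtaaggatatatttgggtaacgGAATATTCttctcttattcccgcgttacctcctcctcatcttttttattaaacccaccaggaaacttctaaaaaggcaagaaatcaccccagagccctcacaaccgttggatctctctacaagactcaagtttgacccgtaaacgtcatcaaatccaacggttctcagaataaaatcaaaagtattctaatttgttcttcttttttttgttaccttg
GDPD1 (chr3:350011-350260, minus strand): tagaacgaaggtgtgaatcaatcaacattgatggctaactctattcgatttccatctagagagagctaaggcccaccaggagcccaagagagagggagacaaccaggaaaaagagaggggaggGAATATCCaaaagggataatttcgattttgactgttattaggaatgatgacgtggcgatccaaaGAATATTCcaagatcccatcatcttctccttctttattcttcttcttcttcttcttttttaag
MGD2 (chr5:6896213-6896462, plus strand): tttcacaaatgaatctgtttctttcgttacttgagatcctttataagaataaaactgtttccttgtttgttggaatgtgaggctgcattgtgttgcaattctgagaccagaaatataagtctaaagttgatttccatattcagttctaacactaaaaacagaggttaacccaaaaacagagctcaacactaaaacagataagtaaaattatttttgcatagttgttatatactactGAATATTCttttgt
AIR1 (chr4:7438865-7439114, plus strand): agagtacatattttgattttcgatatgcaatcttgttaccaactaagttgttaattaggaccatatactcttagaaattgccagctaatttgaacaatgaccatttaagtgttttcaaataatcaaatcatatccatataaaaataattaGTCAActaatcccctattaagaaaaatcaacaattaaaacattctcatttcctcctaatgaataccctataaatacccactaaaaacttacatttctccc
P1BS began 26 bases before the annotated start in AT4, 217 in PPSPASE1, 127 and 63 in GDPD1 and 14 in MGD2. The searched window of MGD2 held 2 matches, of which only 1 lay within the 250 bases shown. The W-box core shown for AIR1 began 100 bases before the start.

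Of 20 genes of salicylic acid and systemic resistance tested, 13 rose and none fell, with a median of 1.49. PR1, a secreted defence protein and the usual marker of salicylic acid signalling, stood at 55.0 and 98.6 CPM in the low Pi libraries of experiment C, at 91.8 and 1989 CPM in D, and at 191 and 78.8 CPM in E. At high Pi it ran from 0.222 to 33.0 CPM with a median of 3.17 CPM. The groups did not overlap, 1 library of experiment D stood far above the rest of the low Pi group, and the 2 high Pi libraries of experiment E were the highest of theirs. The log2 fold change was 5.88 ± 1.05 (edgeR adjusted p = 8.49e-05), the largest among the named genes.

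PAD4, a lipase-like protein that raises salicylic acid, had levels of 19.7, 45.8 and 91.2 CPM at low Pi and 9.75, 12.9 and 40.5 CPM at high Pi, with overlapping groups and a log2 fold change of 1.59 ± 0.31 (edgeR adjusted p = 0.000278). ICS1, the enzyme that makes most pathogen-induced salicylic acid, rose by 0.90 ± 0.32 (edgeR adjusted p = 0.0406), and PBS3, which acts in the next step, by 1.87 ± 0.57 (edgeR adjusted p = 0.0169). ALD1 and FMO1, which make pipecolic acid and its active hydroxylated form, rose by 2.47 ± 0.62 and 2.46 ± 0.67. The transcription factors WRKY54 and WRKY70 rose by 1.70 ± 0.39 and 1.43 ± 0.35. EDS1, the partner of PAD4, had a log2 fold change of 0.68 ± 0.26 that did not pass (edgeR adjusted p = 0.0544).

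Genes outside the lists were also among those with the largest folds, and of these LURP1 and PCC1 are defence-related. PCR1, a plasma membrane protein linked to cadmium tolerance, ran from 31.9 to 726 CPM at low Pi and from 2.05 to 29.95 CPM at high Pi. LURP1, needed for resistance to an oomycete, ran from 54.1 to 357 CPM and from 1.54 to 17.6 CPM, and PCC1, a small pathogen-responsive protein, from 38.5 to 396 CPM and from 2.22 to 18.9 CPM. Low Pi libraries were all above high Pi libraries in each of the 3. Log2 fold changes were 4.65 ± 0.73, 4.41 ± 0.68 and 4.32 ± 0.66 (edgeR adjusted p = 1.03e-05, 8.92e-06 and 7.91e-06), and these calls held in all 27 alternatives. Fits of single experiments are not among the alternatives, and none of the 3 genes was called in experiment E alone.

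Further genes with large folds were of low level. AT1G09500, an enzyme-like protein with an NAD(P)-binding fold, was counted in all 6 low Pi libraries, with levels of 1.25, 9.31 and 15.97 CPM (lowest, median, highest), and was at 0 in 4 of the 6 at high Pi, where the highest was 0.769 CPM. AT5G09570, a Cox19-like protein, ran from 1.82 to 9.65 CPM at low Pi, and at high Pi it was at 0 in 4 of 6 and at most 0.513 CPM. AT2G04050, a MATE-type efflux protein, ran from 1.68 to 6.90 CPM at low Pi and from 0 to 0.531 CPM at high Pi. The groups of all 3 were separate and their calls held in every alternative in which the gene was tested (27, 27 and 26), while fitted folds against so few counts are not given. AT2G45135, a RING-type protein, ran from 2.18 to 14.3 CPM at low Pi and from 0 to 0.881 CPM at high Pi, also without overlap.

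Calls in these lists varied with the experiments included. The salicylic acid list had a median of 1.59 in experiment C alone, 2.73 in D and 0.49 in E, where 17 of 20 genes were above 0. By edgeR, 4 of its genes passed without experiment C, 0 without D (8 had an unadjusted p under 0.05 there), 15 without E, and with libraries summed per experiment 6. In the Pi transport list 5 genes were called higher without C, 6 without D and 10 without E, in the lipid list 7, 7 and 10, and among the 9 other Pi regulators 2, 2 and 6. Over all 18216 genes the higher calls were 278, 294 and 2507 in these fits. An unadjusted p under 0.05 in edgeR was found for 3016 of the 18216 without C and for 3661 without D. The medians of the other Pi regulators were 1.104 in C, 1.025 in D and -0.01 in E. These variations between lists were not tested against each other. In 22 genes of pattern-triggered immunity 4 rose and none fell (median 0.57), beside 8.98% higher over all genes tested. The bacterial elongation factor receptor EFR was among the 4 (1.44 ± 0.43, edgeR adjusted p = 0.0129). In edgeR 0 of the 22 passed without C or without D, where 6 and 5 had an unadjusted p under 0.05. Of 17 indole glucosinolate and camalexin genes 6 rose (median 0.57), including CYP71A12 (2.09 ± 0.64, edgeR adjusted p = 0.0165), whose reads may be split with the near-identical CYP71A13. CYP71A12, CYP81F2, MYB51 and PAD3 are in this list and in the pattern-triggered immunity list, so the counts of these lists are not separate. Jasmonate genes had a median of -0.61, with 1 of 24 lower and none higher, and the median was -0.75, -0.02 and -0.98 in experiments C, D and E.

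**Figure D2:**
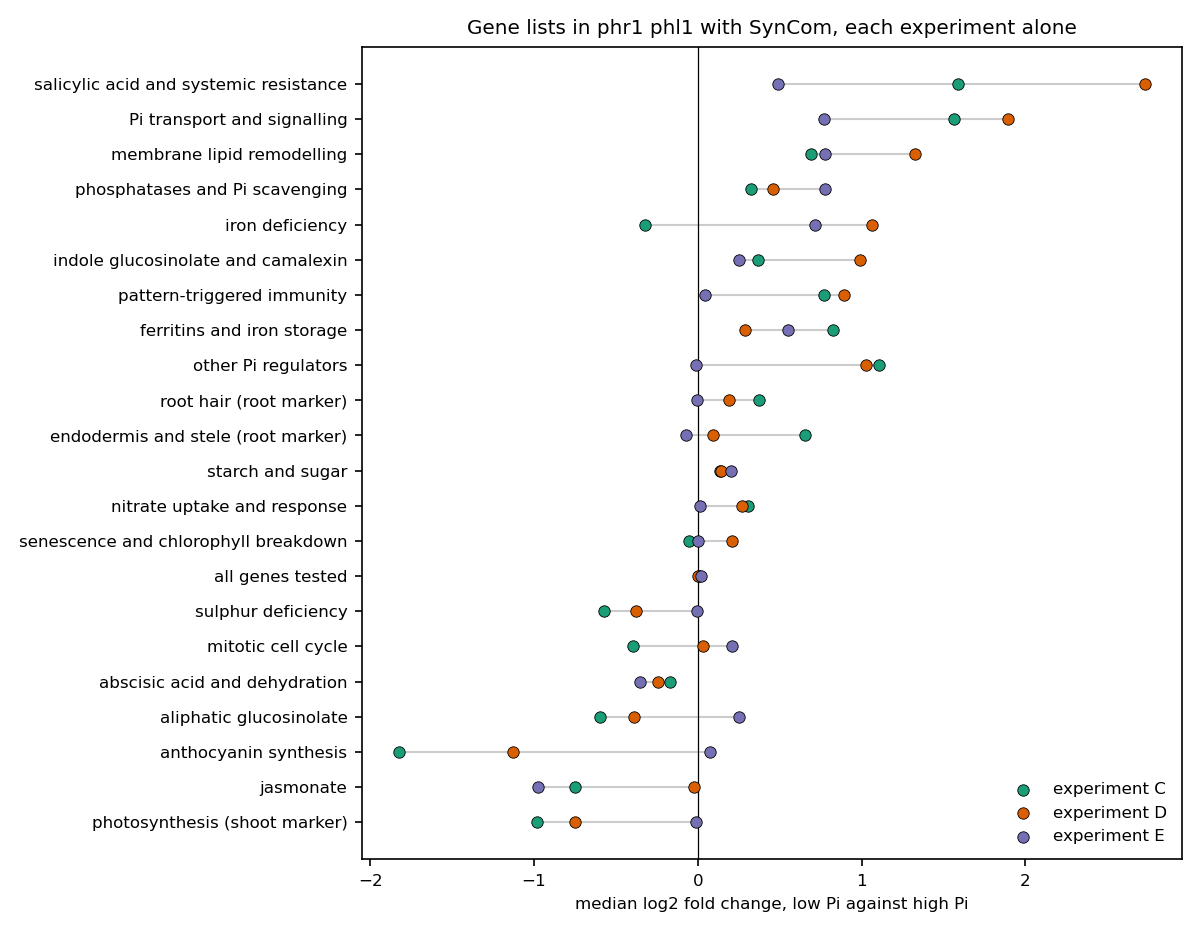
Median log2 fold change of low over high Pi in phr1 phl1 with SynCom for each gene list, in experiments C, D and E fitted alone. The Pi transport list has medians of 1.56, 1.89 and 0.77, and the salicylic acid list of 1.59, 2.73 and 0.49.

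Iron deficiency genes, which take up iron in roots, had a median of 0.78, with 6 of 16 higher and none lower. BHLH39, a regulator of iron uptake, rose by 1.93 ± 0.52 (edgeR adjusted p = 0.00593), FRO2, the root ferric reductase, by 1.36 ± 0.44 (edgeR adjusted p = 0.0234), and PDR9, a transporter that releases iron-binding coumarins, by 1.47 ± 0.30 (edgeR adjusted p = 0.000419). IRT1, the main iron transporter, stood at 12.3 and 2.097 CPM at low Pi in experiment C, 0.791 and 11.3 CPM in D, and 56.7 and 141 CPM in E. At high Pi it was at 1.54 and 2.39 CPM in C, 3.54 and 0.449 CPM in D, and 33.5 and 80.0 CPM in E. Both Pi groups were thus far higher in experiment E, and the log2 fold change of 1.27 ± 0.48 did not pass (edgeR adjusted p = 0.0589). The list median was -0.32 in experiment C, 1.06 in D and 0.71 in E, where all 16 genes were above 0. Without experiment D 0 passed in edgeR, and 7 had an unadjusted p under 0.05, beside 3661 of all 18216 genes in that fit. CYP82C4, which modifies coumarins, was called, but it was at 0 in 4 of the 6 low Pi libraries and no fold change is given.

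Of 23 genes of nitrate uptake and response, 8 rose and 3 fell (median 0.20). NRT2.1, a high-affinity nitrate transporter, ran from 14.3 to 39.8 CPM at low Pi and from 3.59 to 11.4 CPM at high Pi in experiments C and D, where the groups were separate. In experiment E it stood at 54.1 and 33.8 CPM at low Pi and at 47.1 and 37.7 CPM at high Pi, which overlapped. The log2 fold change was 1.44 ± 0.36 (edgeR adjusted p = 0.00295), and the call was lost with limma-voom, without an experiment term, without C and without D. NRT3.1, its partner protein, rose by 1.31 ± 0.25 (edgeR adjusted p = 0.000176) and LBD37, a repressor of nitrate genes, by 0.58 ± 0.11 (edgeR adjusted p = 0.00018). NRT1.1, the dual-affinity transporter, fell by 0.72 ± 0.25, NIR1, nitrite reductase, by 0.62 ± 0.17, and GLN2, the chloroplast glutamine synthetase, by 0.70 ± 0.23. Without experiment C 0 of the 23 passed in edgeR, and 10 had an unadjusted p under 0.05, beside 3016 of all 18216 genes in that fit.

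Among the genes that fell most, COR413IM1, a cold-regulated protein of the chloroplast envelope, ran from 4.35 to 30.2 CPM at low Pi and from 35.1 to 173 CPM at high Pi. The groups did not overlap and the log2 fold change was -2.36 ± 0.53 (edgeR adjusted p = 0.00114), or -4.00, -4.57 and -0.48 in experiments C, D and E. MIOX1, which oxidises myo-inositol, changed by -2.35 ± 0.42 (edgeR adjusted p = 7.22e-05), and SFP2, a sugar transporter-like protein, by -1.81 ± 0.29 (edgeR adjusted p = 1.71e-05). MDP40, a gene of low level, had a highest level of 1.09 CPM at low Pi and a lowest of 1.59 CPM at high Pi, so its groups were separate, and it changed by -2.38 ± 0.49 (edgeR adjusted p = 0.000399).

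Genes of the photosynthetic apparatus, listed as markers of green tissue, had a median of -0.66, and 2 of 27 fell, the Rubisco small subunits RBCS2B and RBCS3B, whose reads are hard to separate. In edgeR 17 of the 27 had an unadjusted p under 0.05, against 31.16% of all genes tested. Summed over the 27 genes, the level had a lowest, median and highest value of 77300, 89010 and 95790 CPM at low Pi and 82210, 136300 and 209100 CPM at high Pi. The median was -0.98 in experiment C, -0.75 in D and -0.01 in E. Summed root hair markers ran from 14.9 to 226 CPM at low Pi and from 8.97 to 231 CPM at high Pi, and summed markers of endodermis and stele from 207 to 376 CPM and from 144 to 393 CPM. Every marker was counted in some library of both groups. Of the root hair markers tested 0 of 20 passed in edgeR's test, 0 had an unadjusted p under 0.05, and DESeq2 and limma-voom called 0. Of the endodermis and stele markers 1 of 18 rose and 1 fell. In whole seedlings fewer cells of a type and less RNA per cell cannot be told apart, and the part of the shoot and root share in the other results was not tested.

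The counts of the remaining lists stand beside shares of 8.98% higher and 8.32% lower over all genes tested. Mitotic genes had 0 of 18 called by edgeR, DESeq2 and limma-voom, with 2 at an unadjusted p under 0.05 in edgeR, and a median of -0.13. In anthocyanin synthesis 1 of 5 rose, in senescence 1 of 12 (SAG13, a marker of early senescence and cell death, at 3.69 ± 0.69, edgeR adjusted p = 0.000137), in starch and sugar 1 of 12 (GPT2, a plastid glucose-phosphate transporter, at 2.21 ± 0.61, edgeR adjusted p = 0.00766), and in aliphatic glucosinolate synthesis 1 of 20. Of 11 sulphur deficiency genes 1 rose and 2 fell, of 15 abscisic acid genes 1 fell, and of 5 ferritin and iron storage genes 2 rose.

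Col-0 with SynCom, in the same experiments and fit, had 5232 genes called (28.7%), of which 2697 rose (14.8%) and 2535 fell (13.9%). Of the 1636 genes that rose in the double mutant 582 also rose in Col-0, which is 35.57% of the first list and 21.58% of the second. Of the 1515 that fell 657 also fell in Col-0, or 43.37% and 25.92%. The difference between the responses, tested as an interaction, passed for 838 genes (4.6%), with 477 below 0 (2.62%) and 361 above 0 (1.98%). Among the 3151 genes called in the double mutant the difference passed for 291 (9.235%). Of the 477 genes with a difference below 0, 361 rose in Col-0, and 312 of these 361 were not called in the double mutant.

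**Figure D3:**
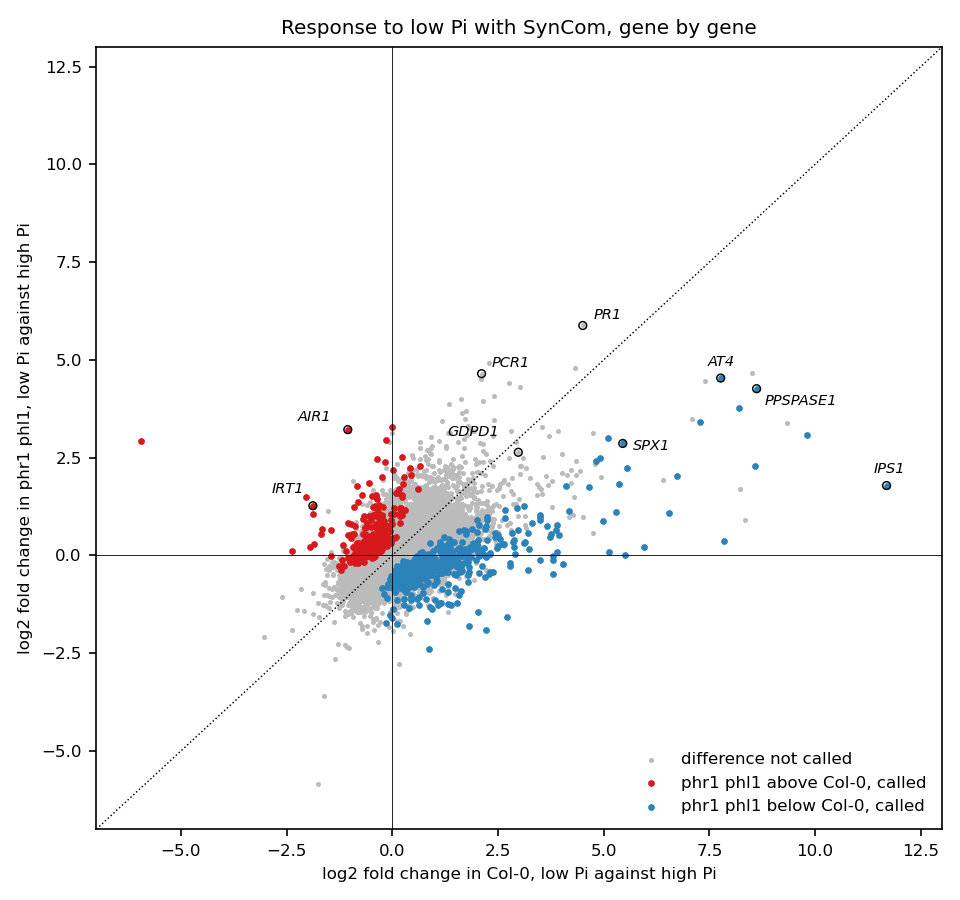
Log2 fold change of low over high Pi in phr1 phl1 (vertical) against that in Col-0 (horizontal), both with SynCom, for all 18216 genes tested, with the 361 genes whose difference passed above 0 in red and the 477 below 0 in blue. AT4, SPX1 and IPS1 lie in blue under the dotted line of equal response, GDPD1 and PR1 lie near it in grey, and AIR1 and IRT1 lie in red above 0 on the vertical axis and below 0 on the horizontal axis. Positions of genes at or near 0 counts in a group, IPS1 among them, depend on the prior count of the fit.

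The Pi genes are described by whether this difference passed. In the Pi transport list 13 of 16 rose in Col-0 (median 4.21) against 10 in the double mutant (median 1.18), and the difference passed below 0 for 7 and above 0 for 1, PHO2. IPS1 stood furthest below Col-0. Col-0 ran from 21.5 to 1292 CPM at low Pi, with a median of 521 CPM, and was at 0 in 5 of 6 libraries at high Pi, so no fold change is given there (edgeR adjusted p for the difference = 5.89e-10). AT4 had a median of 2473 CPM at low Pi in Col-0, and its difference was -3.23 (edgeR adjusted p = 0.00612). The difference was -2.59 for SPX1 (edgeR adjusted p = 0.000559) and -1.70 for PHF1 (edgeR adjusted p = 0.00437). NPC4 rose by 5.50 in Col-0 and PAH1 by 1.27, and their differences were -5.51 and -1.36 (edgeR adjusted p = 0.000158 and 3.76e-05). SQD2 rose by 3.12 in Col-0 against 1.27 (difference -1.85, edgeR adjusted p = 0.000559).

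For GDPD1, SQD1 and DGD1 no difference from Col-0 passed. GDPD1 ran from 95.9 to 273 CPM at low Pi and from 8.37 to 26.5 CPM at high Pi in Col-0, ranges that largely cover those of the double mutant. Its log2 fold change there was 2.98 and the difference was -0.34 (edgeR adjusted p = 0.587). SQD1 rose by 1.85 in Col-0, with a difference of -0.13 (edgeR adjusted p = 0.796), and DGD1 by 0.66, with a difference of 0.33 (edgeR adjusted p = 0.344). MGD2 and PHT1;4 rose by 3.01 and 4.76 in Col-0, with differences of -0.93 and -1.64 that did not pass (edgeR adjusted p = 0.127 and 0.136). An adjusted p that misses the threshold does not show that the responses were alike. Calls of the difference depended on the fit. They held under all alternatives run for 2 of the 14 named genes that had it, IPS1 and AT4G39675, and the total was 5 without experiment C, 12 without D, 3038 without E, and 9 when the 4 groups of the contrast were fitted alone.

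OCT1, an organic cation transporter, rose from a median of 0.283 to 72.8 CPM in Col-0. In the double mutant it stood at medians of 0.676 CPM at low Pi and 0.515 CPM at high Pi with overlapping groups, and its log2 fold change of 0.36 ± 0.94 did not pass. PEPC1, a phosphatase of the group that acts on phosphocholine and phosphoethanolamine, had medians of 275 and 0.607 CPM in Col-0 and of 5.30 and 1.17 CPM in the double mutant. It rose in both genotypes, with a difference of -6.30 (edgeR adjusted p = 0.00314). OCT1 overlaps another annotated gene.

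Of the 361 genes with a difference above 0, 230 fell in Col-0, 140 rose in the double mutant, and 25 did both. AIR1, a gene induced by auxin in root cultures, stood at 239 and 200.0 CPM at low Pi in experiment C, 119.8 and 255 CPM in D, and 31.2 and 20.0 CPM in E. At high Pi it ran from 9.31 to 47.6 CPM, and the groups were separate in experiments C and D but not in E, where the log2 fold change was -0.54. The log2 fold change overall was 3.21 ± 0.48 (edgeR adjusted p = 4.59e-06), against -1.05 in Col-0, and the difference was 4.27 (edgeR adjusted p = 0.000102). Its neighbour on chromosome 4, AT4G12545, which belongs to the same family of lipid-transfer-like proteins, rose by 2.96 ± 0.46, with a difference of 3.105 (edgeR adjusted p = 0.00375). Both overlap other annotated genes. AT4G39675, a gene of unknown function, rose by 1.49 ± 0.34 in the double mutant and fell by 2.04 in Col-0, with a difference of 3.53 (edgeR adjusted p = 7.16e-06). It was one of 25 genes that rose in the double mutant and fell in Col-0, while 21 did the opposite.

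PAD4 changed by 0.07 in Col-0 and its difference was 1.52 (edgeR adjusted p = 0.0353), the only member of the salicylic acid list of 20 for which the difference passed. In that list 5 rose in Col-0, with a median of 0.86. Over all genes tested 14.8% rose and 13.9% fell in Col-0, and the difference passed above 0 for 1.98% and below 0 for 2.62%. For the iron deficiency list, 2 rose and 5 fell in Col-0 (median -0.54), and the difference passed above 0 for 4 genes, among them IRT1 (3.15, edgeR adjusted p = 0.00915) and FRO2 (2.18, edgeR adjusted p = 0.0452). Photosynthesis genes fell in Col-0 in 24 of 27 cases and root hair genes rose in 14 of 20, with medians of -0.94 and 1.37. The difference from Col-0 passed for 0 of these 27 genes (median difference 0.36). It passed for 1 of the 20 root hair genes, below 0 (median difference -1.21). The summed photosynthesis level in Col-0 at low Pi ran from 4522 to 111400 CPM, and the lowest value was the library of experiment D that stood apart. Without the 4 libraries that stood apart the difference was called for 658 genes in all.

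**Figure D4:**
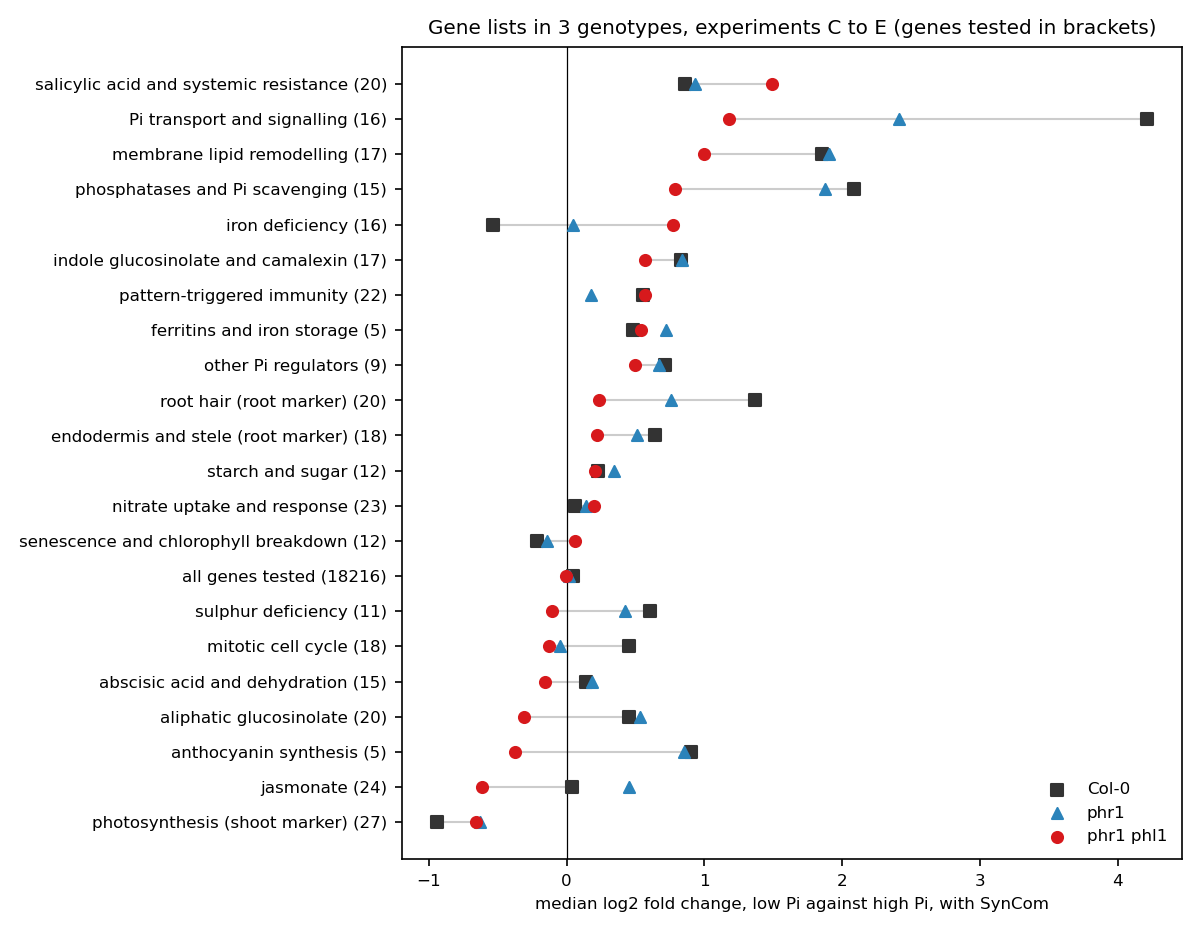
Median log2 fold change of low over high Pi with SynCom for each gene list (genes tested in brackets) in Col-0 (squares), phr1 (triangles) and phr1 phl1 (circles), experiments C to E. For Pi transport the medians are 4.21, 2.41 and 1.18, and for the salicylic acid list 0.86, 0.93 and 1.49.

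Against the single mutant few differences passed. With SynCom phr1 had 3437 genes called (18.9%), 1858 higher (10.2%) and 1579 lower (8.67%). Of its 1858 higher genes 740 were also higher in the double mutant (39.83% of that list and 45.23% of the double mutant's). The difference between the responses of phr1 phl1 and phr1 passed for 19 genes (0.104%), 6 above 0 (0.0329%) and 13 below 0 (0.0714%). AT4 was among these: it rose by 8.88 in phr1, and the difference was -4.35 (edgeR adjusted p = 0.00636). AT1G58280, a phosphoglycerate mutase-like protein, rose by 1.21 ± 0.26 in the double mutant and 3.33 in phr1, with a difference of -2.12 (edgeR adjusted p = 0.00607). IPS1 rose in the double mutant and its log2 fold change in phr1 was 1.49, with a difference of 0.30 (edgeR adjusted p = 0.933). CHX16, a cation exchanger, had 1.31 ± 0.25 in the double mutant and -0.21 in phr1 (difference 1.53, edgeR adjusted p = 0.0454). None of the 10 named genes with this call kept it under every alternative, and the count was 0 without experiment C and 81 without E.

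Without bacteria no gene passed in the double mutant by edgeR's quasi-likelihood test. An unadjusted p under 0.05 was found for 892 of 18216 genes (4.897%), about the share that this threshold gives with no effect. DESeq2 called 7 genes, all lower, and limma-voom 0. In edgeR the 892 became 223 without the first high Pi library of experiment D, and 265 without the 4 libraries that stood apart. No gene passed in either fit. The difference between the Pi responses with and without SynCom passed for 468 genes (2.57%), 247 above 0 (1.36%) and 221 below 0 (1.21%). These included 5 of the 16 Pi transport genes, 5 of the 17 lipid genes, 2 of the 15 phosphatase genes, 3 of the 9 other Pi regulators and 1 of the 20 salicylic acid genes, all above 0. AT4 had a log2 fold change of 0.44 ± 0.51 without bacteria, and the difference made by SynCom was 4.097 ± 0.73 (edgeR adjusted p = 0.00125). GDPD1 stood at 0.14 without bacteria (difference 2.49 ± 0.33, edgeR adjusted p = 4.79e-06) and SQD1 at 0.11 (difference 1.62 ± 0.22, edgeR adjusted p = 7.68e-06).

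PHO2 and LPR2 stood at 0.11 and -0.11 without bacteria, with differences of 1.09 and 1.12 (edgeR adjusted p = 0.0219 and 0.0102), and PAD4 and AIR1 at -0.29 and -0.09, with differences of 1.88 and 3.31 (edgeR adjusted p = 0.0189 and 0.0174). For PR1 the log2 fold change without bacteria was 3.96 ± 1.51, which did not pass, and no difference passed (edgeR adjusted p = 0.719). The 468 calls fell to 2 without experiment C and to 4 without D, and rose to 1971 without E. They became 610 without the 4 libraries that stood apart.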

How the data were processed

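RNA was measured in whole seedlings by non-stranded poly(A) RNA-seq, per the labels' protocols. The authors deposited 1 table of raw read counts per gene with 27206 loci and 104 libraries, of which 1788 loci had no count. Per the submitters' processing notes CASAVA 1.8, cutadapt 1.3, TopHat2 2.1.1, HTSeq 0.6.1p1 and the TAIR10 genome were used, with neither roles nor settings given in the sources used here. The second header line of the count table was not used as data. Samples were grouped by their titles.

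The 72 libraries of experiments C to E, the only ones with phr1 phl1, were fitted together in edgeR 4.0.16 (R 4.3.3): filterByExpr over 12 groups left 18216 genes, scaling was TMM, experiment was a term, and quasi-likelihood F tests were adjusted by Benjamini-Hochberg over all genes tested at 0.05. Standard errors are the absolute log2 fold change over the square root of F. CPM are counts over the scaled library size. Alternatives were DESeq2 1.42.0, limma-voom 3.58.1, other scalings and filters, other sets of libraries, a replicate block and leaving out each library or experiment. Fits of each experiment alone are given apart and are not counted among the alternatives.

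Gene symbols came from the RefSeq annotation of TAIR10.1. The deposited files use TAIR10, and TAIR10.1 coordinates are given only for promoters. Of 440 symbols in 21 lists, 384 were matched, 34 had no match, 19 were ambiguous and 3 were left out. Some lists share genes. Low counts limit lowly expressed genes, and totals of 955174 to 9550846 per library set that limit. The comparison, lists and named-gene rule were chosen with earlier results of these data known. Named genes are the mutated pair, the members of lowest adjusted p in every list (at most 4), the 12 highest and 12 lowest fold changes with the same sign in each experiment and at least 1 CPM, and the 5 highest and lowest differences from Col-0 and from phr1. The 5 clearest genes of opposite sign to Col-0 complete the rule, and other list members are given as values within their list. Beyond the median correlation of 0.482 within an experiment, libraries with the same number did not deviate together (median correlation of residuals -0.039 against -0.0476 for other numbers). No library looked like a copy of another: the lowest chi-square per degree of freedom between pairs was 1.916.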

Additional observations from a re-analysis of the deposited data

Results flagged for a closer look

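In groups of 6 libraries, 13 of 254 groups examined held a library with a gap to the others over Dixon's 95% limit, and chance gives about 1 in 20 groups. Among low Pi libraries of the double mutant with SynCom, SPX1 stood at 22.5 CPM in the first library of experiment E against 80.4 to 142 CPM in the others, SQD1 at 102 CPM there against 179.5 to 233 CPM, and BCAT3, an aminotransferase of glucosinolate chain elongation, at 39.9 CPM there against 55.5 to 66.0 CPM. AT3G25240 was at 0 CPM in the same library. LDOX, an anthocyanin enzyme, was at 8.76 CPM in the second library of experiment E.

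In the first low Pi library of experiment D, CYP79B2, an enzyme of indole glucosinolate synthesis, stood at 38.4 CPM, VTL5, a vacuolar iron transporter-like protein, at 19.4 CPM and AT1G58280 at 7.91 CPM, all under the other 5. In the second, PR1 was at 1989 CPM and DPE2, a starch breakdown enzyme, at 77.7 CPM, both above the rest. In the first high Pi library of experiment E, WRKY70 stood at 70.0 CPM, PHT1;2 at 0.441 CPM and AT3G13433 at 0.881 CPM, the last 2 against 0 in the others.

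Differences between the Pi responses of the double mutant and Col-0 that passed edgeR's test were 4.27 for AIR1, 3.53 for AT4G39675, 3.28 for BGLU30, a beta-glucosidase, 3.15 for IRT1 and 3.105 for AT4G12545. Those below 0 were -9.90 for IPS1, -7.50 for OCT1, -6.73 for AT3G25240, -6.30 for PEPC1 and -5.73 for PLL3, a phosphatase of the POLTERGEIST family. IPS1 was at 0 in 5 of 6 Col-0 libraries at high Pi and AT3G25240 in all 6, so the size of these 2 values depends on the prior count of the fit and is no bound. OCT1 and PEPC1 were of very low level in Col-0 at high Pi, so the size of their values also rests on few counts.

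Among genes with opposite calls in the 2 genotypes, WTF1 differed by 1.23, AT2G01710 by 0.96, AT4G07820 by 2.61 and AT3G27470 by -0.98. Against phr1 the differences were 1.53 for CHX16, 0.78 for AT3G13990, 0.66 for CCX4, a cation exchanger, 0.63 for ECT2, a reader of methylated adenosine in mRNA, and 0.56 for EIF4A1, a translation initiation factor. Below 0 they were -4.35 for AT4, -2.94 for AT1G08310, -2.50 for AT3G50350, -2.43 for VSP1, a vegetative storage protein, and -2.12 for AT1G58280.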

How the results depend on the processing

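No call of the named genes reversed under any alternative run, and 20 of the 76 named genes called in the double mutant kept the call in all those in which they were tested. Fits of a single experiment are not counted among these alternatives, and experiment E alone called 3 genes in the double mutant. The 3151 genes called there became 1444 with libraries summed per experiment, 933 with no experiment term, 368 without experiment C, 564 without D and 4819 without E, and 1947 to 3849 with single libraries left out. Upper-quartile scaling moved the share of higher calls to 56.9%. The difference from Col-0 (838) became 3083 with all libraries of experiments A to E, 9 with its groups fitted alone, 49 summed, 114 with no experiment term, 5 without C, 12 without D, 3038 without E, and 524 to 1893 with single libraries left out. The difference from phr1 (19) became 102 with DESeq2, 63 with all libraries, 31 at 5 CPM in 6 libraries, 5 fitted alone, 1 summed, 30 with limma-voom, 1 with no experiment term, 0 without C, 3 without D, 81 without E, 67 without the 4 libraries that stood apart, and 3 to 126 with single libraries left out. The difference made by SynCom (468) became 884 with DESeq2, 793 with all libraries, 7 summed, 19 with no experiment term, 299 with no filter on low counts, 2 without C, 4 without D, 1971 without E, and 103 to 1238 with single libraries left out. Col-0 (5232) became 9345 with all libraries, 1782 alone, 2641 with no experiment term, 1554 without C, 1028 without D and 3737 to 6228 with single libraries left out. The single mutant phr1 (3437) became 1858 alone, 1546 summed, 1085 with no experiment term, 210 without C, 2209 without D and 1951 to 4289 with single libraries left out, the lowest without the first low Pi library of experiment C. The cause of these changes was not tested. Fits with fewer libraries also have less power.

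Library numbers did not pair the samples across groups. With a replicate block for library number, the double mutant had 3157 genes called, the difference from Col-0 821, the difference from phr1 16, the difference made by SynCom 473, Col-0 5200, phr1 3453, and the double mutant without bacteria 0.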
